A study of Mus musculus with 3 samples.

Results

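The upper part of glycolysis was examined in chromatin immunoprecipitation sequencing (ChIP-seq) of Ad4BP/SF-1 through 10 listed genes, out of 21911 protein-coding genes in GENCODE M21 on mm10. The 10 genes were listed by name as members of the pathway, with earlier results of these data known, and encode a glucose transporter (*Slc2a1*), hexokinases (*Hk1*, *Hk2*), glucose-6-phosphate isomerase (*Gpi1*), phosphofructokinases (*Pfkl*, *Pfkm*, *Pfkp*), an enzyme that sets the level of a phosphofructokinase activator (*Pfkfb3*), and aldolases (*Aldoa*, *Aldoc*). A ChIP peak was assigned to a gene when it shared at least 1 bp with the gene body extended by 10 kb at each end, and an extension of 50 kb was used as a wider window. By this rule 10 of 5721 peaks from vehicle-treated cells and 5 of 4025 peaks from cAMP-treated cells belonged to the 10 genes.

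Leydig cells, the androgen-producing cells of the testis, were obtained from testes of 10 ICR male mice aged 9 weeks, purified on a Percoll gradient and cultured on collagen. The cells received vehicle or cAMP, a second messenger through which luteinizing hormone stimulates steroid production, and 1 immunoprecipitation library was made for each condition. An input DNA sample was not used here, and whether MACS was run against the input is not stated in the methods. The labels name no transgene or mutation in the mice, and the dose and duration of cAMP for these libraries are not given in the sources used here.

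Ad4BP/SF-1, the product of *Nr5a1*, is a nuclear receptor that binds DNA as a monomer at an extended half-site and is required for the expression of steroidogenic genes. Glycolysis takes place in the cytosol of all cells. In its upper part, glucose enters through a transporter, is phosphorylated by hexokinase, isomerized, phosphorylated again by phosphofructokinase at the committed step, and split by aldolase into triose phosphates. Several of these steps have isozymes that differ in tissue distribution and regulation, which is why the members are set side by side by step.

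Each peak carried a MACS score, which by the layout of MACS peak files is 10 times the negative log10 of the p-value of the peak. The scores ranged from 50 to 904.96 with a median of 72.39 in the vehicle list, and from 50.01 to 803.27 with a median of 67.85 in the cAMP list. Depth is unknown, as the lists give positions and scores without read numbers, and since the score rises with depth, a score in one list is not comparable with the same score in the other. For this reason the rank of each peak in its own list is given, with the share of that list that scored lower. A missing peak means that no region was called there, which is not the same as a region free of the factor. Since each condition had 1 library, differences between the lists have no replicate error to be compared with. Of 9 genes known from Leydig cells, 4 had a peak within 10 kb in each list (*Star*, *Cyp11a1*, *Scarb1* and *Nr5a1*), where 19.3% (vehicle) and 13.9% (cAMP) of all protein-coding genes did. These 4 are also used by adrenocortical cells, and *Cyp17a1*, *Hsd3b1*, *Hsd3b6*, *Insl3* and *Lhcgr* had no peak within 10 kb. Of 4 Sertoli cell genes 1 (*Amh*) had a vehicle peak, which was centred 62 bp from the transcription start site (TSS) of *Sf3a2*, and of 4 adrenocortical genes 0 had a peak in either list. A peak is no measure of expression, so these counts describe called regions and are no check of the cell type.

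The sequences below show where the Ad4BP/SF-1 octamer lies in the peaks that were found in both lists, because these are the regions on which the description of the 10 genes turns most. Capitals mark a copy of the octamer, searched for as CCAAGGCC, CCAAGGTC, TCAAGGCC or TCAAGGTC on both strands, and copies on the opposite strand appear as the reverse complement. All were read from the RefSeq mm10 genome (GRCm38.p6), in the orientation of the gene, which is the minus strand for these 3 genes. The *Aldoa* sequence, chr7:126798309-126798607, lies in an intron and carries 2 copies.
Aldoa: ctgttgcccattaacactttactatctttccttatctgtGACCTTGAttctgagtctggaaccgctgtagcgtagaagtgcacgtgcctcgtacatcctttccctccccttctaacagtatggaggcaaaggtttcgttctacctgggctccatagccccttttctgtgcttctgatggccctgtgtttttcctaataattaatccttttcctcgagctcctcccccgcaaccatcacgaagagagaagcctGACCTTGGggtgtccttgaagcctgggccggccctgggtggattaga
The *Pfkl* sequence, chr10:78015744-78015831, lies upstream of the gene.
Pfkl: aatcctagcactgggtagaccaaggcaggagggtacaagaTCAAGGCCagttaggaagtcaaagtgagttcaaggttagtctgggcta
The *Hk1* sequence, chr10:62321280-62321367, lies in an intron.
Hk1: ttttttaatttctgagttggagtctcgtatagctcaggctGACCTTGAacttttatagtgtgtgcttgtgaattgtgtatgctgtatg

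A further 6 regions with an octamer were called in 1 list only at the other isozymes of hexokinase and phosphofructokinase and upstream of *Pfkl*, and short stretches of them show how the flanks of the octamer differ. Each is written on the strand of the octamer, with 10 bases before and after it, and the octamer in capitals. The *Hk2* copies lie at chr6:82770606-82770613 and chr6:82723627-82723634, both on the plus strand. The second *Pfkl* copy lies at chr10:78018953-78018960 and the *Pfkp* copy at chr13:6634991-6634998, both on the minus strand. Of the 3 *Pfkm* copies, those shown lie at chr15:98108622-98108629 on the minus strand, in the peak inside the gene, and at chr15:98139078-98139085 on the plus strand, in the peak beyond its end, which holds another copy described below.
Hk2 intron: gaccaagattTCAAGGTCatcctctatg
Hk2 downstream: gagagtcactTCAAGGCCatcctcatat
Pfkl upstream: aaaacagcgtTCAAGGTCgactcacgct
Pfkp intron: aacaatcagtTCAAGGCCggggagatgg
Pfkm internal: cgctctccacCCAAGGCCtccctcttgc
Pfkm downstream: ggatcttgtcCCAAGGTCaccactccct

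Peaks were found at 7 of the 10 genes in at least 1 list. In the vehicle list 6 genes had a peak within 10 kb (*Hk1*, *Hk2*, *Pfkl*, *Pfkm*, *Pfkfb3* and *Aldoa*), where 19.3% of all protein-coding genes did. In the cAMP list 5 genes had one (*Hk1*, *Pfkl*, *Pfkm*, *Pfkp* and *Aldoa*), where 13.9% of all genes did. The 4 genes with a peak in both lists were *Hk1*, *Pfkl*, *Pfkm* and *Aldoa*, against 10.1% of all genes, and 23.1% of all genes had a peak in either list. *Slc2a1*, *Gpi1* and *Aldoc* had none. Hexokinase, phosphofructokinase and aldolase, the steps with several isozymes among the members, each had at least 1 gene with a peak in both lists. Their other genes, *Hk2*, *Pfkp* and *Aldoc*, did not. The transporter and the isomerase were each represented by 1 gene. A step with more listed genes has more chances to reach such a count, so the steps cannot be compared by it.

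The counts were above the shares of all genes at every window. With the gene body alone, 4 members had a peak in each list, 2 had one in both (*Hk1* and *Aldoa*) and 6 in either, against 12.6%, 9.16%, 6.42% and 15.4% of all genes for the vehicle list, the cAMP list, both lists and either list. Within 50 kb, 7 members had a vehicle peak (36.7% of all genes), 6 had a cAMP peak (28.8%), 4 had both (22.5%) and 9 had either (43.1%). The genes added by the wider window were *Aldoc* in the vehicle list and *Slc2a1* in the cAMP list, and *Gpi1* stayed without a peak. The members tended to be longer than other genes, with a median body of 34.6 kb against 17.4 kb over all protein-coding genes. Genes in the members' range of body length, 4.81 to 111 kb, numbered 15780. Within 10 kb, 19.4% of these had a vehicle peak, 13.6% a cAMP peak, 9.9% both and 23.1% either. The part of gene length in the counts was not tested further. Per length of sequence, the 0.652 Mb of member windows held 15.3 vehicle peaks and 7.67 cAMP peaks per Mb, and the joined windows of all protein-coding genes held 3.42 and 2.33 per Mb. With 10 genes and 1 library per condition these figures are a description of the lists.

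**Figure D1:**
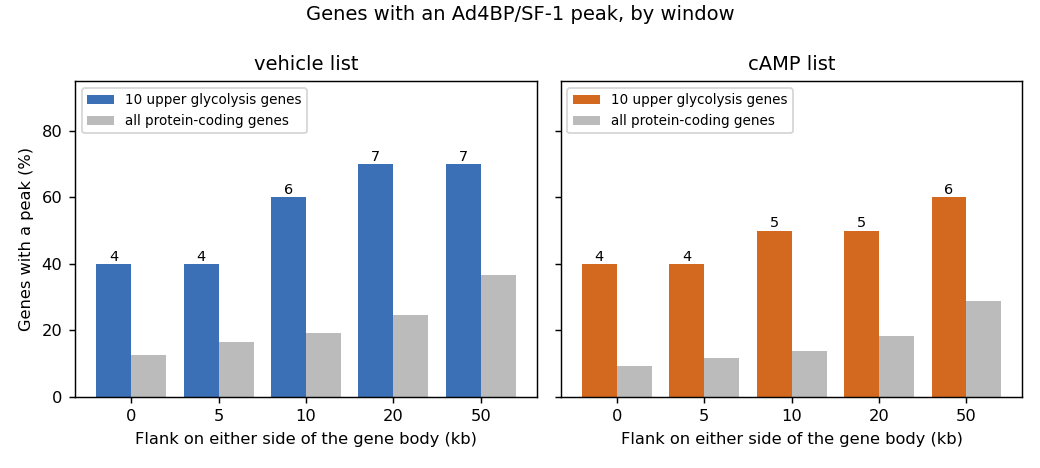
Share of genes (%) with an Ad4BP/SF-1 peak against the flank added to either side of the gene body (kb), for the vehicle list on the left and the cAMP list on the right. Coloured bars stand for the 10 upper glycolysis genes, with the number of genes above each bar, and grey bars for all protein-coding genes. The coloured bar is the taller at each flank, from 4 genes with the body alone to 7 (vehicle) and 6 (cAMP) with 50 kb.

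Glucose entry was represented by *Slc2a1*, which encodes the widely expressed glucose transporter GLUT1 and lies on chromosome 4 from 119108711 to 119137983. Neither list held a peak within 10 kb. The nearest cAMP peak, from 119165819 to 119166255, lay 27.8 kb beyond the 3′ end, scored 51.38, close to the lowest score of its list, with 6.93% of the list below it, and was nearer to the TSS of *Zfp691*. The nearest vehicle peak was 310 kb away. The 49.3 kb window of the gene held 11 octamer copies, all outside peaks.

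The hexokinases phosphorylate glucose and so retain it in the cell. *Hk1*, the broadly expressed form, spans 111 kb on chromosome 10 from 62268855 to 62379908 on the minus strand. Its body held 3 vehicle peaks, and 1 of them had a counterpart in the cAMP list. This shared region (vehicle, 62321092 to 62321555, and cAMP, 62321000 to 62321482) lay in intron 4 of the principal transcript, 2.93 kb upstream of the nearest annotated TSS of the gene and 58.6 kb from its outermost 5′ end. It scored 74.32 in the vehicle list (rank 2709, 52.6% of the list below) and 96.21 in the cAMP list (rank 1008, 75% below). The share of the list below it was 22.4 percentage points higher in the cAMP list than in the vehicle list. Over all 2167 shared peaks this difference had quartiles of −19.9, −2.01 and 14.2 points, and 81.5% of them had a lower value than the *Hk1* region.

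The other *Hk1* peaks inside the body were called in the vehicle list alone and ranked near the middle of it. The peak from 62310564 to 62310952, in intron 5, scored 66.12 with 40.3% of the list below. The peak from 62329792 to 62330347, in intron 4 and 2.3 kb upstream of another annotated TSS, scored 67.61 with 42.4% below. The nearest cAMP peak to both was the shared one, 10048 and 8310 bp away, so in each case the cAMP list held a called region elsewhere in the gene but not at the same place.

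*Hk2*, the insulin-responsive hexokinase of muscle and fat, lies on chromosome 6 from 82725025 to 82774454 on the minus strand and had peaks in the vehicle list alone. A peak in intron 1, from 82770291 to 82770866, lay 2.41 kb downstream of an annotated TSS and scored 69.56, with 45.6% of the list below. The other, from 82723423 to 82723874, began 1151 bp beyond the 3′ end of the gene and scored 57.01, with 21% below. The cAMP list held no peak within 50 kb of *Hk2*. Its nearest one, from 82854339 to 82854693, was 79.9 kb from the body and scored 115.76. Thus of the hexokinases among the members, *Hk1* had peaks in both lists and *Hk2* only in the vehicle list, and neither had a peak within 10 kb that reached a score of 100.

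*Gpi1*, which encodes the isomerase that converts glucose 6-phosphate into fructose 6-phosphate, lies on chromosome 7 from 34201330 to 34230336 and was the only member without a peak of either list within 50 kb. The nearest cAMP peak was 359 kb away, next to *Kctd15*, and the nearest vehicle peak 895 kb away, next to *Cebpa*. Its 49 kb window held 19 octamer copies, so the absence of a called peak did not go with an absence of the octamer.

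The phosphofructokinases phosphorylate fructose 6-phosphate and are named after the tissues in which they are abundant: liver (*Pfkl*), muscle (*Pfkm*) and platelet (*Pfkp*). The 3 genes differed in where their peaks lay and in which list they were called. *Pfkl*, on chromosome 10 from 77986947 to 78010083, had no peak in its body and 2 upstream. The nearer (vehicle, 78015530 to 78016103, and cAMP, 78015495 to 78016128) lay 5.73 kb upstream of the TSS, so that the cAMP region contained the vehicle region. It scored 147.52 in the vehicle list (rank 650, 88.6% below) and 192.99 in the cAMP list (rank 164, 95.9% below). The difference of 7.3 percentage points was within the middle range of the shared peaks, of which 67.0% had a lower value. The farther region, from 78018631 to 78019295, 8.88 kb upstream, scored 122.71 in the vehicle list (rank 1002, 82.5% below) and had no counterpart, the nearest cAMP peak being the shared one 2503 bp away.

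At *Pfkm*, on chromosome 15 from 98092589 to 98132451, both lists held a peak within 10 kb, but not at the same place. The cAMP peak, from 98108379 to 98108680, was centred 63 bp from an annotated internal TSS, 15.9 kb into the gene, and scored 58.51 with 31.2% of its list below. It was the only one of the member peaks within 10 kb to reach a promoter window of the gene, as described below, and the richest in G and C, with 62.3% against a median of 47.37% over all cAMP peaks. The vehicle peak, from 98138746 to 98139365, lay 6295 bp beyond the 3′ end, inside the neighbouring gene *Asb8*, whose TSS was nearer to it. It scored 80.2 with 59.0% of its list below. These regions were 30066 bp apart, so *Pfkm* counted as a gene with peaks in both lists although no peak was shared.

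*Pfkp*, on chromosome 13 from 6579768 to 6648777, had a cAMP peak alone. It lay in intron 2, from 6634726 to 6635246, 1.66 kb downstream of an annotated TSS and 13.8 kb from the outermost 5′ end, and scored 67.53 with 49.3% of the list below. The nearest vehicle peak was 1430208 bp from it. Side by side and within 10 kb, *Pfkl* had the highest scores of the phosphofructokinases in each list, and *Pfkm* had a peak of each list at separate places. *Pfkp* was the only member with a peak in the cAMP list and none in the vehicle list within 10 kb.

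*Pfkfb3* encodes an enzyme that makes fructose 2,6-bisphosphate, the allosteric activator of phosphofructokinase. The gene lies on chromosome 2 from 11471433 to 11554077 and held 1 vehicle peak within 10 kb, in intron 1 from 11534975 to 11535514, 18.8 kb downstream of its outermost 5′ end. The peak scored 69.73 with 45.9% of the list below. It was the only one of the 12 regions without the octamer, although the window of the gene held 35 copies elsewhere. No cAMP peak lay within 50 kb, and the nearest was 224 kb away.

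The aldolases split fructose 1,6-bisphosphate into triose phosphates. *Aldoa*, the form of muscle and most other tissues, had the strongest peak of the 10 genes in each list. On chromosome 7, the vehicle peak extended from 126797900 to 126798866 and scored 433.45 (rank 35). The cAMP peak extended from 126797898 to 126798807 and scored 371.41 (rank 26). In each list 99.4% of the peaks scored lower, and the regions overlapped by 908 bp. It lay in intron 1 of the principal transcript, 0.61 kb downstream of an annotated TSS in the vehicle list and 0.64 kb in the cAMP list, and 10.7 or 10.8 kb from the outermost 5′ end of the gene. *Aldoa* has more than 1 entry in GENCODE, which were joined, and the region also lies inside the annotation of *Fam57b*.

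*Aldoc*, the aldolase best known from brain, is the shortest of the 10 genes, at 4.81 kb on chromosome 11 from 78322968 to 78327781, and had no peak within 10 kb. The nearest vehicle peak, from 78345432 to 78345810, lay 17.7 kb beyond its 3′ end inside *Unc119* and scored 62.04, with 32.8% of the list below. The nearest cAMP peak was 86.2 kb away, next to *Sdf2*. The aldolases therefore differed, *Aldoa* with 99.4% of each list below its peak and *Aldoc*, like *Slc2a1* and *Gpi1*, without an assigned peak.

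**Figure D2:**
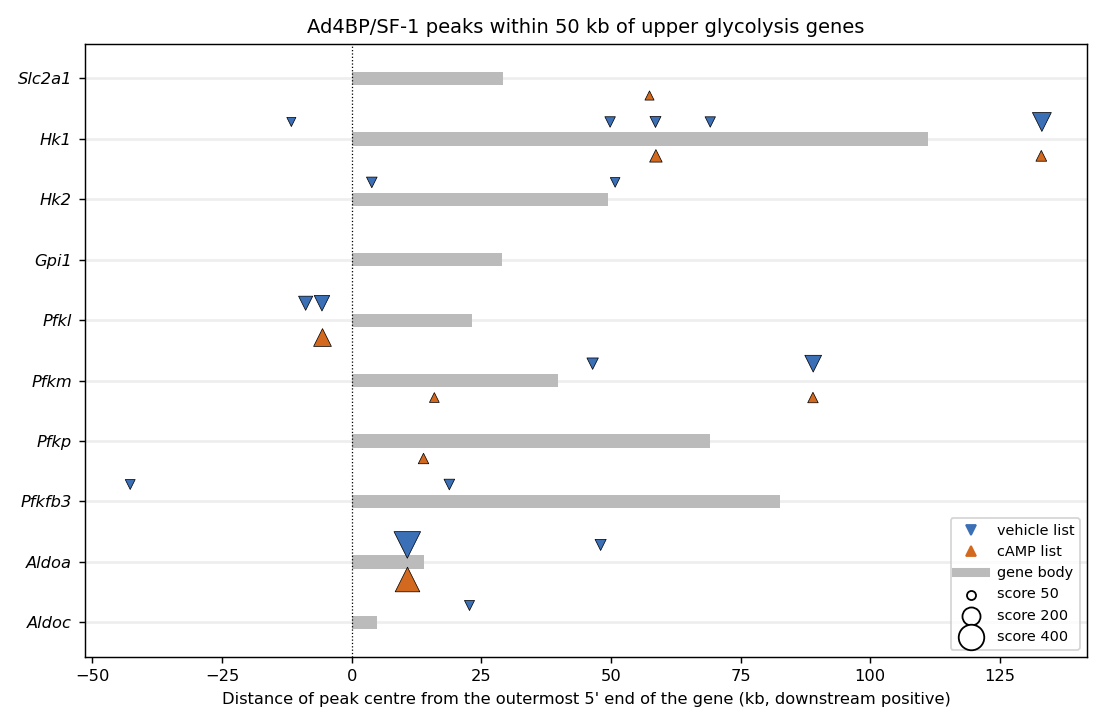
Positions of the Ad4BP/SF-1 peaks within 50 kb of the 10 genes, as the distance of the peak centre from the outermost 5′ end of the gene (kb, downstream positive). Grey bars are gene bodies, blue triangles above them vehicle peaks and orange triangles below them cAMP peaks, with symbol area rising with the score. The *Aldoa* symbols are the largest, *Gpi1* has no symbol, and the *Pfkl* peaks lie to the left of the 5′ end.

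**Figure D3:**
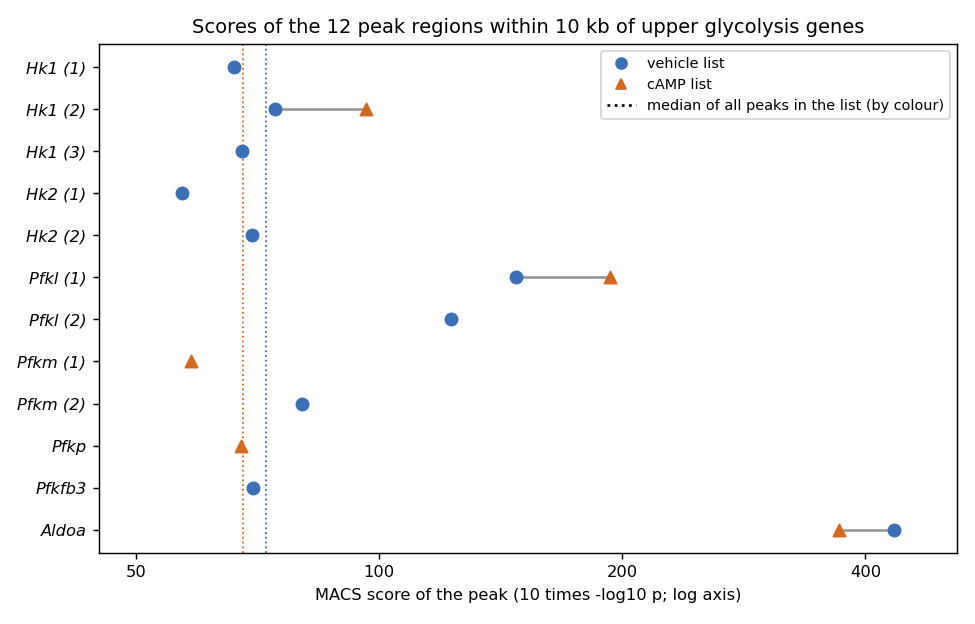
MACS scores (log axis) of the 12 peak regions within 10 kb of the 10 genes, numbered within each gene by rising coordinate, with circles for the vehicle list and triangles for the cAMP list. Grey lines join the 3 regions called in both lists, and dotted lines mark the median of all peaks of each list, 72.39 (vehicle) and 67.85 (cAMP). *Pfkl* and *Aldoa* lie above 100, and the other points lie between 57.01 and 96.21.

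Taking the members as a group, the vehicle peaks within 10 kb scored between 57.01 and 433.45, and the cAMP peaks between 58.51 and 371.41. The 10 vehicle peaks had a median score of 72.03, with a median of 49.2% of the list below, and 5 of them scored above the median of all vehicle peaks. The 5 cAMP peaks had a median score of 96.21 with 75% below, and 3 scored above the median of all cAMP peaks. Scores of at least 100 were reached by 3 of 10 vehicle peaks and 2 of 5 cAMP peaks, all at *Pfkl* and *Aldoa*, against 26.6% and 23.0% of all peaks. With a minimum score of 75, members with a peak numbered 3 (vehicle), 3 (cAMP), 2 (both) and 4 (either), against 10.7%, 6.72%, 4.87% and 12.6% of all protein-coding genes. With a minimum of 100 they were 2 in each case, against 6.62% (vehicle), 4.01% (cAMP), 2.8% (both) and 7.82% (either). The counts of members fell with the minimum score, as did the shares of all genes.

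Peaks with a counterpart in the other list numbered 3 of 10 vehicle peaks and 3 of 5 cAMP peaks. Over the whole lists the shares were 37.9% (95% exact Clopper-Pearson interval, counting error only, 36.6 to 39.1%) and 53.8% (52.3 to 55.4%). The share rose with the score in both lists. Of all vehicle peaks that scored from 50 to under 75, 22.2% had a counterpart, and so did 1 of the 6 member peaks in this range, at *Hk1*. Of those that scored at least 100, 67.9% had one, as did 2 of 3 member peaks, and the upstream *Pfkl* peak at rank 1002 was the exception. In the cAMP list the shares were 37.3% from 50 to under 75, where neither the *Pfkm* nor the *Pfkp* peak had a counterpart, and 88.6% from 100, where the *Pfkl* and *Aldoa* peaks both did. Apart from that *Pfkl* peak, the member peaks called in 1 list scored in ranges where most peaks of the same list had no counterpart.

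The position of the regions within the genes was set beside that of all pairs of a peak and a protein-coding gene within 10 kb. In the vehicle list 6 of the 10 peaks were centred in an intron of the member, against 56% of 5948 pairs, and in the cAMP list 4 of 5 were, against 57.4% of 3902 pairs. The nearest protein-coding TSS belonged to the member itself for 9 of 10 vehicle peaks and 5 of 5 cAMP peaks, against 66.6% and 69% of the pairs, and the vehicle peak in *Asb8* was the exception. The centre lay within 1 kb of a protein-coding TSS for 1 of 10 vehicle peaks (*Aldoa*) and 2 of 5 cAMP peaks (*Aldoa* and *Pfkm*), against 10.7% and 8.7% of all peaks. RefSeq promoter windows, from 250 bases before to 50 after a start, numbered 18 for the 10 genes. None of the 18 overlapped a vehicle peak, and 2 overlapping windows at the internal start of *Pfkm* overlapped its cAMP peak. The share of all promoter windows that overlap a peak is not given, so these counts have no background to be set against. The octamer was in 0 of the 18 windows and in 5.73% of the 32851 promoter windows of the mouse genome.

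The octamer itself was found in 9 of 10 vehicle peaks, where 80.4% (79.3 to 81.4%) of all vehicle peaks had it, and in 5 of 5 cAMP peaks, where 77.1% (75.8 to 78.4%) did. In a central window of fixed length the counts were again 9 and 5, and the shares of all peaks were 78% and 75%. Windows of that length placed every 100 kb along the genome held it in 5.11% of 26461 cases. The shares of the members were thus close to those of the lists, and both were far above that of the genome.

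The 12 regions held 14 octamers. The form TCAAGGTC accounted for 6 of them, TCAAGGCC for 4, CCAAGGTC for 3 and CCAAGGCC for 1. This order was that of all peaks, in which the same forms made up 42.6%, 27.8%, 17.5% and 12.1% of copies in the vehicle list. The single CCAAGGCC was that of the internal *Pfkm* peak, which also lay furthest from the centre of its peak among the regions with 1 copy, at 96 bp. An octamer followed by a purine was in 9 of 10 vehicle and 4 of 5 cAMP member peaks, against 75.2% and 73.1% of all peaks. A purine followed 12 of the 14 copies and an adenine 10, which is visible in the printed *Hk2* contexts, both of which continue with A, and in those of *Pfkl* and *Pfkp*, which continue with G.

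A pair of octamers was found in 3 regions. At *Aldoa* the copies started 213 bp apart on the same strand, 32 and 182 bp from the centre of the vehicle peak and 1 and 212 bp from that of the cAMP peak. At *Hk1* the copies of the region at 62329792 started 34 bp apart on opposite strands, and in the downstream *Pfkm* region the copies started 104 bp apart, also on opposite strands. A count of at least 2 copies was found in 3 of 10 vehicle and 1 of 5 cAMP member peaks, against 20.8% and 19.4% of all peaks. The spacing and orientation of the pairs differed from gene to gene.

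Copies lay close to the centres of the vehicle peaks. Of the 12 copies in vehicle member peaks 10 were within 50 bp of the centre, against 54.6% of all copies in the list, and of the 6 copies in cAMP member peaks 3 were, against 54.4%. At the shared *Hk1* region the copy was at the centre of the vehicle peak (0 bp) and 82 bp from the centre of the cAMP peak, whereas at *Pfkl* it was 29 and 24 bp away. The same copy can therefore lie at a different distance in each list when the called edges differ.

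**Figure D4:**
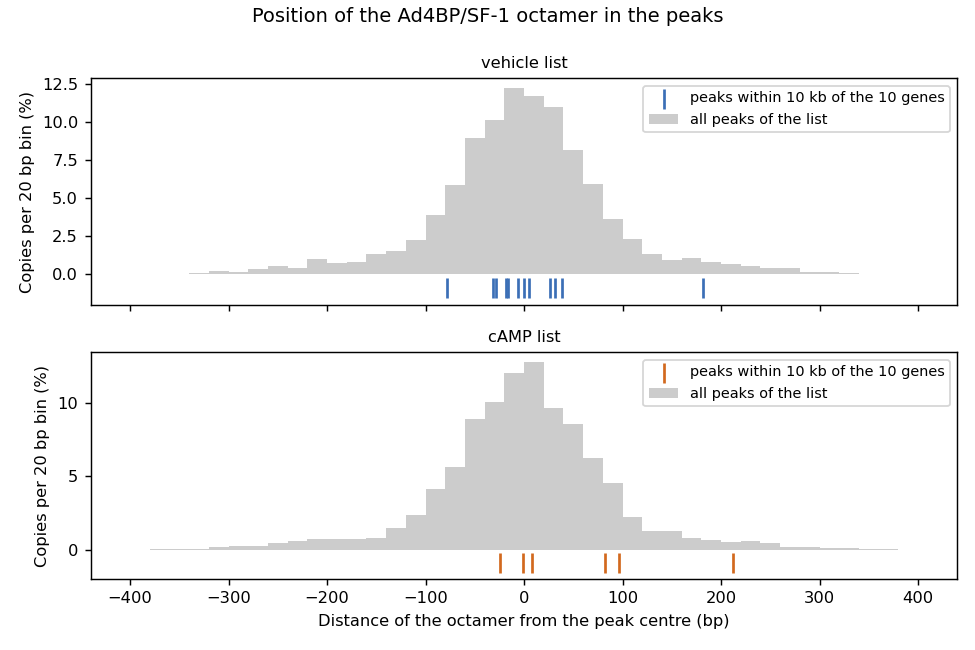
Distance of octamer copies from the peak centre (bp) in the vehicle list (top) and the cAMP list (bottom). The grey histogram gives the share of all copies in the list per 20 bp bin (%), and the ticks below 0 on the vertical axis mark the copies in peaks within 10 kb of the 10 genes. Of 12 vehicle ticks 10 lie within 50 bp of the centre, and of 6 cAMP ticks 3 do.

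Some octamers lay in repeated sequence, as marked by lower case in the RefSeq genome. This was so for 7 of the 12 copies in vehicle member peaks (58.3%, against 36.1% of all copies in vehicle peaks) and for 1 of 6 in cAMP member peaks (16.7%, against 40.9%). The copies in repeats were 3 of those at *Hk1*, both at *Hk2* and both in the region downstream of *Pfkm*. Those of *Aldoa*, *Pfkl*, *Pfkp* and the internal *Pfkm* region were not in lower case, which does not show that their sequence is unique. The *Aldoa* vehicle peak was repeat-masked over 2.28% of its length, against a median of 13.83% over all vehicle peaks. Only reads with a single position were kept by the authors, which can leave out binding in repeats, and the part of this in the counts was not tested.

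Only a small part of the octamers around the 10 genes lay in a called peak. Their windows held 196 copies, 0.301 per kb, against 0.207 per kb around all protein-coding genes and 0.184 per kb of the genome. Of these 196 copies 14, or 7.14%, were in a peak of either list, and around all protein-coding genes 2.19% were. *Aldoa* had the most copies per length, 0.708 per kb, and *Pfkp* the fewest, 0.157 per kb. *Hk1* had the most copies and the most in peaks, 4 of 36. *Hk2* had 2 of 28 in peaks, *Aldoa* 2 of 24, *Pfkp* 1 of 14, *Pfkm* 3 of 12 and *Pfkl* 2 of 9. In *Pfkfb3* 0 of 35 were in peaks, in *Gpi1* 0 of 19, in *Slc2a1* 0 of 11 and in *Aldoc* 0 of 8.

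**Figure D5:**
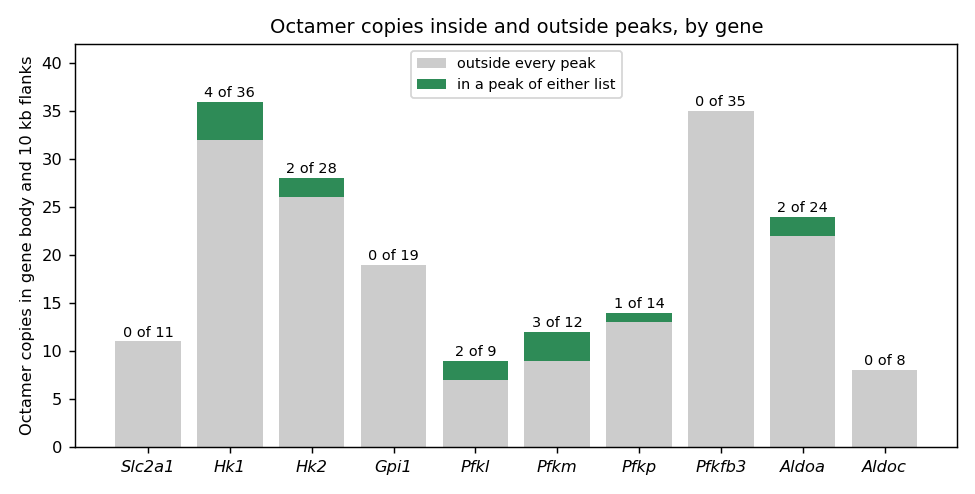
Number of octamer copies in the body and 10 kb flanks of each gene, divided into copies inside a peak of either list (green) and outside every peak (grey). Labels give the copies in peaks of all copies, from 4 of 36 at *Hk1* to 0 of 35 at *Pfkfb3*.

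Other motifs were looked for in the same peaks on both strands. The cAMP response element TGACGTCA, the palindrome bound by CREB, was in 0 of 10 vehicle and 0 of 5 cAMP member peaks, and in 0.699% and 0.77% of all peaks. The NR4A element AAAGGTCA was also in none, against 3.92% and 3.53%. The AP-1 sites TGACTCA and TGAGTCA were in 1 vehicle and 1 cAMP member peak, against 16.1% and 17.3%. ACGTG, the core of the hypoxia response element and a short word that is frequent by its length, was in 4 of 10 vehicle peaks and 4 of 5 cAMP peaks, against 26.3% and 24.3%. The *Aldoa* sequence printed above contains it, in the stretch gcacgtgc, and the shared *Hk1* region contains it too. A match describes the letters of these windows and is not evidence of a bound factor.

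Between 10 and 50 kb from the genes there were 6 vehicle peaks, 2 of them with a counterpart, and 3 cAMP peaks, 2 of them with a counterpart. The shared ones had a smaller share of the list below them in the cAMP list than in the vehicle list. Downstream of *Hk1*, 21692 bp from its body and nearest to *Tacr2*, a region from 62246452 to 62247163 scored 219.03 in the vehicle list (rank 243, 95.8% below) and 71.27 in the cAMP list (55.1% below), a difference of −40.6 points. Downstream of *Pfkm*, 48873 bp from its body and nearest to *Olfr288*, a region from 98181324 to 98181859 scored 172.22 in the vehicle list (92.2% below) and 67.42 in the cAMP list (49.1% below), a difference of −43.1 points. Of all shared peaks 11.3% and 10.1% had a lower value than these. The lists differ in length and possibly in depth, so these differences describe places in the lists and not a change in binding. The 3 shared regions within 10 kb, at *Hk1*, *Pfkl* and *Aldoa*, had differences of 22.4, 7.3 and −0.0342 points.

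The remaining distant peaks were in or beside other genes. The vehicle peak 11385 bp upstream of *Hk1* lay in *Hkdc1*, scored 50.78, near the lowest score of the list, and had no octamer. That 42529 bp upstream of *Pfkfb3* lay in *Rbm17* and scored 60.39. That 33862 bp downstream of *Aldoa* was centred 352 bp from the TSS of *Mapk3*, held 2 octamers and scored 75.67. Each of these 3 was called in the vehicle list alone.

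Glycolysis genes outside the 10 members were counted in the same way. Of 13 further isozymes and regulators of the upper part, 4 had a vehicle peak, 1 a cAMP peak and 1 both, against 19.3%, 13.9% and 10.1% of all protein-coding genes. The gene with both was *Slc2a3*, a glucose transporter, with scores of 59.0 and 62.89. Those with a vehicle peak alone were *Tigar*, a phosphatase that lowers fructose 2,6-bisphosphate (103.73), and the hexokinases *Hk3* (75.65) and *Hkdc1*, whose peak is the one upstream of *Hk1*.

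Of 12 genes of lower glycolysis, 6 had a peak in each list, 5 in both and 7 in either, against 19.3% (vehicle), 13.9% (cAMP), 10.1% (both) and 23.1% (either) of all genes. *Pgk1*, which encodes phosphoglycerate kinase, had the highest scores of both pathways, 582.64 and 657.62, and these peaks held no octamer, unlike those of *Aldoa*. *Ldha* (lactate dehydrogenase A) scored 120.95 and 140.56, and *Pkm* (pyruvate kinase) had vehicle peaks of 164.94 and 80.55 and a cAMP peak of 71.25. *Pgam1* had vehicle peaks of 106.33 and 69.33 and cAMP peaks of 96.9 and 62.89, and *Ldhb* scored 58.27 and 52.42. *Gapdh* had vehicle peaks of 85.61 and 61.4 alone, and *Eno2* a cAMP peak of 64.23 alone, nearest to *Atn1*. A difference between the upper and the lower part of the pathway was not tested.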

How the data were processed

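ChIP-seq of Ad4BP/SF-1 in vehicle-treated and cAMP-treated Leydig cells was analysed from 1 peak list per library. Reads had been aligned by the authors to mm10 using Bowtie (0.12.8 in the submitters' processing notes, another version in the methods), those with several positions had been discarded, and MACS had been used for peak calling. The deposited value of each peak is the MACS score, and the lowest score in each list lies above the threshold stated in the methods. Depth per sample is unknown, as read numbers are not in the lists.

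Python 3.11.15 with pandas 2.3.3 and numpy 2.4.6 was used for overlaps, ranks and motif counts, scipy 1.17.1 for intervals, pysam 0.24.0 for sequences and matplotlib 3.10.9 for plots, after the functions had been tested on simulated data. Genes were those of GENCODE M21, entries of 1 symbol on 1 strand within 10 kb of each other were joined, and introns are those of the principal transcript at the peak centre. Coordinates count from 1. The genes, lists, motifs and windows were chosen with earlier results of these data known. All 10 genes are named with their peaks within 50 kb, together with each gene of the other glycolysis lists that had a peak, except 1 gene that is not reported here and was left out of its list. No test was made between the lists.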

Additional observations from a re-analysis of the deposited data

How the results depend on the processing

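Of 60 alternative values computed for the 8 counts, 43 stayed within a factor of 1.5 of the reported value and 17 did not. With the gene body alone or with 5 kb on either side, 2 members had a peak in both lists in place of 4, against 6.42% and 8.32% of all genes, and with the gene body alone 5 of 6 vehicle peaks had the octamer. With 50 kb, 5 of 16 vehicle peaks and 5 of 8 cAMP peaks had a counterpart, and 14 of 16 and 8 of 8 had the octamer. Over all vehicle and cAMP peaks the shares were 37.9% and 53.8% for a counterpart, and 80.4% and 77.1% for the octamer. With a minimum score of 75 the members with a peak were 3 (vehicle), 3 (cAMP), 2 (both lists) and 4 (either list), against 10.7%, 6.72%, 4.87% and 12.6% of all protein-coding genes. With a minimum score of 100 they were 2, 2, 2 and 2, *Pfkl* and *Aldoa* each time, against 6.62%, 4.01%, 2.8% and 7.82%. The octamer was then in 3 of 3 vehicle and 2 of 2 cAMP member peaks, and its share over all peaks of such a score is not given. The settings differ in which peaks they keep, and the reason for each change was not tested. The 4 counts of members with a peak changed by at most 1.5 times with the 4025 top-scoring peaks of each list, with assignment to the nearest TSS and with basic transcripts alone. So did the counterpart counts with the other overlap rules, and the octamer counts in the central 200 bp and with the shorter and longer forms of the octamer. Other pairs of these counts and settings were not computed. No paired analysis was possible because there was 1 library per condition, which also leaves no replicate to omit. The unknown depth limits what an absent peak can show.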
